A study of Mus musculus with 6 samples.

Results

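The IFIT genes encode interferon-induced proteins with tetratricopeptide repeats, and they were described here in SCC7, a mouse squamous cell carcinoma line, by RNA sequencing. Irradiated cells were labelled as given radiotherapy, for which the treatment protocol states 9 Gy (n = 3 libraries), and control cells were labelled as untreated (n = 3), although both groups carry that protocol text. Day 0 is the time given for all 6 libraries, which leaves the wait between the dose and the harvest unstated, and both groups were the same line grown in high-glucose medium with serum. Separate cultures are not mentioned for the 3 libraries of a group, and the spread on which every p-value rests may therefore be technical. The members were the 6 rows of the expression table that carry an IFIT gene symbol (Ifit1, Ifit2, Ifit3, Ifit3b, Ifit1bl1 and Ifit1bl2), out of 17030 genes. Values are FPKM (fragments per kilobase of transcript, scaled to the fragments of the library), so levels can be compared between genes. The number of reads behind them is unknown.

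IFIT proteins are built almost wholly from helical repeats that fold around a pocket for RNA. IFIT1 binds messenger RNA whose cap lacks 2'-O methylation, as viral RNA often does, and keeps it from being translated. Human IFIT3 binds human IFIT1 and stabilises it, human IFIT2 binds AU-rich RNA, and IFIT2 has been linked to cell death in human cells. Cells hold little IFIT RNA at rest. Transcription begins when IRF family factors, such as IRF9 after interferon has bound its receptor or activated IRF3, occupy the interferon-stimulated response element of the promoter.

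All members lie side by side on chromosome 19, between positions 34550550 and 34662981 (build GRCm38.p6, RefSeq gene limits), in the order Ifit2, Ifit3, Ifit1bl1, Ifit3b, Ifit1bl2, Ifit1. Promoter windows of 300 bases around each annotated start site, mostly upstream of it, were read from RefSeq (GRCm38.p6) for the 6 members. Sequences are shown for Ifit1 and Ifit3, the most abundant members in irradiated cells, and for both annotated starts of Ifit2. Capitals mark the core of the response element, searched as GAAANNGAAA and, for the other strand, as TTTCNNTTTC, with overlapping matches allowed.

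Ifit1, chr19:34640639-34640938, plus strand: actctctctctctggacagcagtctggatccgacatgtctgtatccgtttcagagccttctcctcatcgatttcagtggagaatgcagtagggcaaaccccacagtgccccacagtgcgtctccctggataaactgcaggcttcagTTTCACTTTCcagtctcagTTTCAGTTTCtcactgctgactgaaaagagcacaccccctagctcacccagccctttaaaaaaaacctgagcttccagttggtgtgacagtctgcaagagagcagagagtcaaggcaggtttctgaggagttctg

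Ifit3, chr19:34583279-34583578, plus strand: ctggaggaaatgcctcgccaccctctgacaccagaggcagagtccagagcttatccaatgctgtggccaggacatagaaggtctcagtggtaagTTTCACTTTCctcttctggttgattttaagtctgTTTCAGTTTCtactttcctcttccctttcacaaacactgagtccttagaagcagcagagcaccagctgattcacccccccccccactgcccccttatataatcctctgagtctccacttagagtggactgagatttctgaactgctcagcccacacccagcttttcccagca

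Ifit2 upstream start, chr19:34550444-34550743, plus strand: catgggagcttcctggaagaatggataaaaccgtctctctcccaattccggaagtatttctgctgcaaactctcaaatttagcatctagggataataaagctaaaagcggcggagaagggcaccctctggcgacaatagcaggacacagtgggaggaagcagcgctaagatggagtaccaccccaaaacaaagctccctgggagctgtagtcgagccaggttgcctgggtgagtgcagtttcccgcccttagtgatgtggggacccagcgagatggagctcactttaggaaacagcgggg

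Ifit2 downstream start, chr19:34550838-34551137, plus strand: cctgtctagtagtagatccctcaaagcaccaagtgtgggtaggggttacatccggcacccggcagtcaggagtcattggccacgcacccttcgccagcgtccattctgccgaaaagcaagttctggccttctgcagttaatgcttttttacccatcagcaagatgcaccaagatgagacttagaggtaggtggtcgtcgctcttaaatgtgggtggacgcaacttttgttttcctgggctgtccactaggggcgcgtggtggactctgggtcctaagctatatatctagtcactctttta

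The Ifit1, Ifit3 and Ifit3b windows each held 2 matches, and both Ifit1bl1 windows held 1. Neither Ifit2 window held a match, which says only that these letters are not in these windows. Ifit1 and Ifit1bl2 start 146 bases apart on opposite strands, their windows share 245 bases, and the 2 matches of Ifit1bl2 are the same bases as those of Ifit1, read from the other strand. The second Ifit1bl2 window held none. A match occurred in 3.99% of the 27025 genes with a promoter window and in 20 of the 47 listed interferon-stimulated genes that had one. Of the listed genes that were tested, 19 of 20 with a match were called higher in irradiated cells, with a median log2 fold change of 3.04. Without a match, 24 of 26 were called higher, with a median of 2.11. Over all genes tested, 9.24% were called higher, and the median was 0.17. The list was drawn up with earlier results of these data known, so these counts describe the list and not the match. A match is a description of the sequence, and binding was not measured.

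Irradiated cells held much more RNA of Ifit1, Ifit3 and Ifit3b than control cells, while Ifit2 differed less. With all 6 libraries Ifit2 did not pass the test. It passed when control 3 was left out, as did 69.1% of all genes tested. Ifit2, the most abundant member in every control library, was the fourth in every irradiated library. That place counts Ifit3b apart from its near copy Ifit3, and the split between them is uncertain. Summed over the 6 members, IFIT RNA was 138, 200 and 109 FPKM in the irradiated libraries, against 6.86, 5.5 and 12.8 FPKM in the controls. The mean sum was 17.8 times as high in irradiated cells (149 ± 46.3 FPKM) as in control cells (8.40 ± 3.90 FPKM; SD, n = 3 each).

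Ifit1, the cap-binding member (NCBI gene 15957), measured 60.8, 79.7 and 49.6 FPKM in irradiated libraries 1 to 3, against 0.49, 0.40 and 2.12 FPKM in control libraries 1 to 3. The groups lay far apart, and control 3 was the highest control. The ratio of the means was 63.2, or 142 without control 3, an alternative chosen after seeing the data. The log2 fold change was 5.08 (SE 0.34, limma adjusted p = 0.000838). Log2 fold changes are irradiated minus control on log2(FPKM + 1), which understates the change of low genes. Over all 11103 genes tested, 12.0% were called at an adjusted p below 0.05, 9.24% higher and 2.77% lower in irradiated cells, and the median log2 fold change was 0.17. The 1026 higher and 308 lower calls became 645 and 601 after quantile normalization, and 675 and 476 after trimmed-mean scaling.

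Ifit3, whose human counterpart is the partner of IFIT1 (NCBI gene 15959), measured 47.9, 77.7 and 36.0 FPKM in irradiated cells, against 0.81, 0.89 and 1.08 FPKM in control cells. The controls were close together, and the irradiated libraries varied more between themselves. The means had a ratio of 58.1, and the log2 fold change was 4.76 (SE 0.27, limma adjusted p = 0.000526). Ifit3b, a near copy of Ifit3 (NCBI gene 667370), measured 18.5, 29.8 and 13.6 FPKM in irradiated cells and was listed at 0, 0 and 0.11 FPKM in control cells. Its log2 fold change was 4.31 (SE 0.27, limma adjusted p = 0.000701), and no ratio is given because the controls were at or near 0.

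Ifit2 (NCBI gene 15958) measured 10.5, 11.6 and 9.33 FPKM in irradiated libraries, against 5.56, 4.19 and 9.50 FPKM in control libraries. Control 3 lay narrowly above irradiated library 3, so the groups overlapped. The FPKM of all genes summed to 693961 in control 3 and to 659393 in irradiated library 3. Scaling to equal sums was not run, so the overlap is stated for the values as deposited. The mean was 10.5 ± 1.15 FPKM in irradiated cells and 6.42 ± 2.76 FPKM in control cells (SD, n = 3 each), a ratio of 1.63, with a log2 fold change of 0.69 that missed the threshold (SE 0.27, limma adjusted p = 0.111). An exact two-sided permutation test of Ifit2 alone gave p = 0.20, where 0.10 is the smallest that 3 against 3 libraries allow. The value depended on the scaling of the libraries, at 0.34 after quantile normalization (limma adjusted p = 0.212), which moved the median of all genes to -0.02.

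Control 3 stood between the other controls and the irradiated libraries on the first principal component (8.27, against -43.8 and -64.1 for controls 1 and 2 and 29.9 to 35.2 for the irradiated libraries). Without it, the ratio of the means of Ifit2 was 2.15. Ifit2 was then called higher in irradiated cells (log2 fold change 0.97, limma adjusted p = 0.000467, within a range up to 0.286 over the alternatives). With control 3 left out, 69.1% of the 11103 genes passed, and the call of Ifit2 is to be read against that share. Ifit1, Ifit3 and Ifit3b were called in the main comparison and without any 1 of the 6 libraries, and their log2 fold changes without control 3 were 5.45, 4.82 and 4.36.

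The remaining members were barely detected. Ifit1bl2 (NCBI gene 112419) measured 0.60, 0.74 and 0.31 FPKM in irradiated cells, against 0, 0.02 and 0.02 FPKM in control cells. Ifit1bl1 (NCBI gene 667373) measured 0.17, 0.23 and 0.20 FPKM in irradiated cells and was listed at 0 in all 3 controls. Neither reached the minimum of 1 FPKM in 3 libraries that a gene needed to be tested. With no minimum they had log2 fold changes of 0.60 (limma adjusted p = 0.0296) and 0.26 (limma adjusted p = 0.00627), in a fit that called 7.86% of 17030 genes. Ifit1, Ifit3 and Ifit3b met the minimum only through the irradiated libraries, with 1, 1 and 0 controls at 1 FPKM or more, so that 3 of 4 tested members were called is a description and no support. In the values as deposited the groups did not overlap for 5 of the 6 members, Ifit2 being the exception. Across all genes tested the groups did not overlap for 45.4%, and for 31.8% with the irradiated libraries higher.

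**Figure D1:**
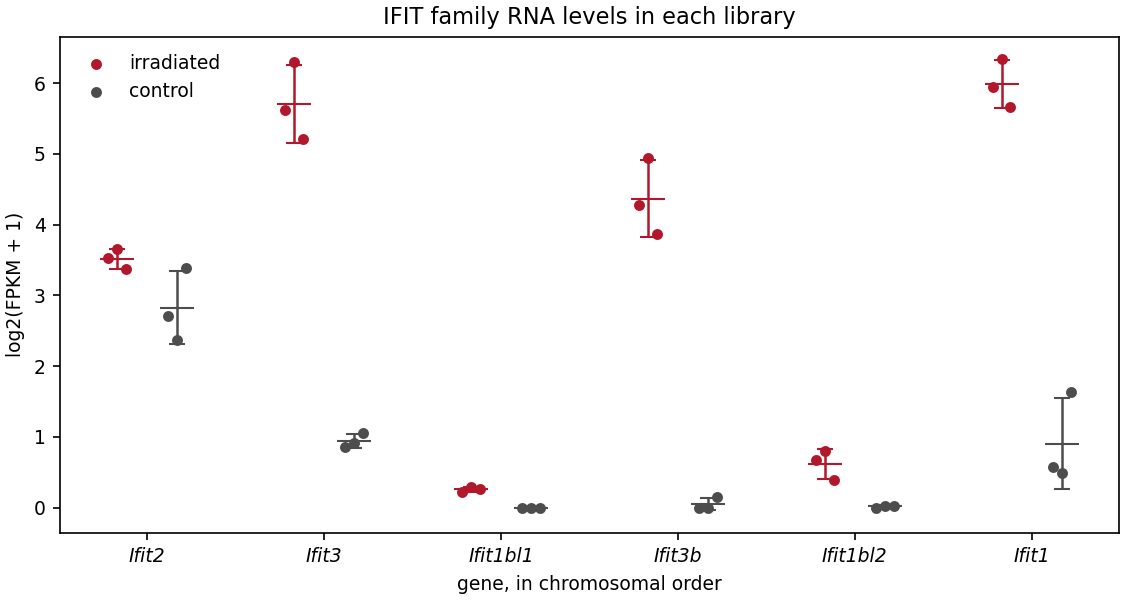
Level of each IFIT gene as log2(FPKM + 1) in the 3 irradiated (left, red) and 3 control (right, grey) libraries, with points for libraries and bars for the mean ± SD. Ifit1, Ifit3 and Ifit3b are far apart between the groups, the Ifit2 groups overlap, and Ifit1bl1 and Ifit1bl2 stay below 1 FPKM.

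In irradiated cells the order of the levels was Ifit1 (63.4 ± 15.2 FPKM), Ifit3 (53.9 ± 21.5), Ifit3b (20.6 ± 8.34), Ifit2 (10.5 ± 1.15), Ifit1bl2 (0.55 ± 0.219) and Ifit1bl1 (0.20 ± 0.03; SD, n = 3). The ranges of Ifit1 and Ifit3 overlapped, although Ifit1 was the higher in each library, and those of all other neighbours in this order did not. In control cells Ifit2 came first (6.42 ± 2.76 FPKM), followed by Ifit1 (1.00 ± 0.968) and Ifit3 (0.927 ± 0.139), whose ranges overlapped, and by the other members at or near 0. Among the genes tested, 86.2% had a lower mean than Ifit1 in irradiated cells, and 4.03% did in control cells. For Ifit2 these shares were 38.4% in irradiated cells and 31.2% in control cells. The genes tested leave out those that did not reach 1 FPKM in 3 libraries, and Ifit1 itself met that minimum only through the irradiated libraries. The low share of Ifit1 in control cells is therefore set in part by the filter. None of these shares gives a place among all genes of the expression table.

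The make-up of IFIT RNA differed between the groups. Ifit2 made up 7.57%, 5.82% and 8.56% of the summed FPKM in the irradiated libraries, against 81.0%, 76.2% and 74.0% in the controls. Ifit1 made up 43.9%, 39.9% and 45.5% in the irradiated libraries, against 7.14%, 7.27% and 16.5% in the controls. Ifit3 and Ifit3b together supplied most of the rest in irradiated cells, and Ifit3b was at 0 in controls 1 and 2.

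**Figure D2:**
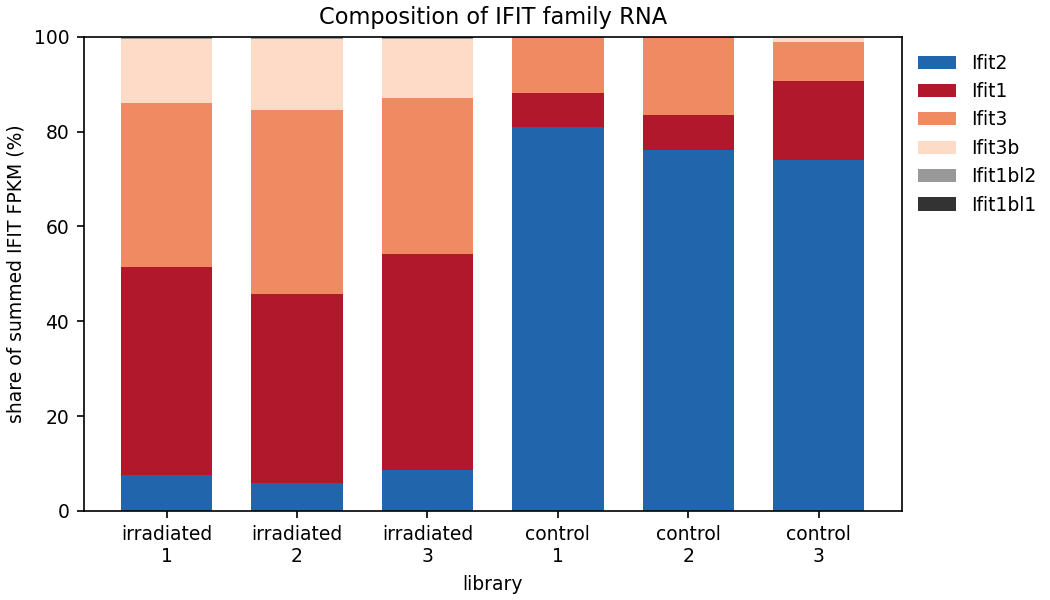
Share of the summed IFIT FPKM held by each gene, in percent, for 3 irradiated (left) and 3 control (right) libraries. Ifit2 takes 5.82% to 8.56% in the irradiated libraries and 74.0% to 81.0% in the controls. Ifit1bl2 and Ifit1bl1 are too low to be seen.

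The 3 tested paralogs were then set against Ifit2 within the same library, to compare their changes with that of Ifit2. All 3 met the minimum level only through the irradiated libraries, where they are high, while Ifit2 met it in both groups. Their calls relative to Ifit2 are therefore a description and no support. The FPKM ratio of Ifit1 to Ifit2 was 5.80, 6.86 and 5.32 in irradiated cells, against 0.0881, 0.0955 and 0.223 in control cells. For Ifit3 the ratio was 4.57, 6.68 and 3.85 in irradiated cells, against 0.146, 0.212 and 0.114 in control cells. For Ifit3b it was 1.76, 2.57 and 1.46 in irradiated cells, against 0, 0 and 0.0116 in control cells. All 3 paralogs thus lay above Ifit2 in each irradiated library and below it in each control. For Ifit3 and Ifit3b this takes the listed split between the 2 copies as given.

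The log2 fold change exceeded that of Ifit2 by 4.39 for Ifit1 (SE 0.21, limma adjusted p = 0.00013), by 4.07 for Ifit3 (SE 0.30, limma adjusted p = 0.000579) and by 3.63 for Ifit3b (SE 0.30, limma adjusted p = 0.000915). These fits used the log2 ratio of every other tested gene to Ifit2, and 0.730% of 11102 genes were called higher relative to it. The ratio was higher in all irradiated libraries than in all controls for each of these paralogs and for 5.20% of all genes. Because every ratio contains the variation of Ifit2 itself, these adjusted p-values are approximate. The exact two-sided permutation test of the log2 ratio gave p = 0.10 for each of these 3 paralogs, the smallest possible with 3 against 3. For Ifit1bl1 and Ifit1bl2, which stayed below Ifit2 in every library of both groups, the exact permutation test gave p = 0.40 and 0.80. Both stayed below 1 FPKM, where log2(FPKM + 1) is small, so these log2 ratios mostly follow Ifit2 itself. The test therefore cannot show whether their changes differed from that of Ifit2. The plain FPKM ratio of Ifit1bl2 to Ifit2 was 0.0332 to 0.0637 in irradiated and 0 to 0.00477 in control cells. That of Ifit1bl1 was 0.0162 to 0.0214 in irradiated cells and 0 in control cells. Ifit1, Ifit3 and Ifit3b were called relative to Ifit2 under each alternative run, including the omission of control 3, with a highest limma adjusted p of 0.0152.

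**Figure D3:**
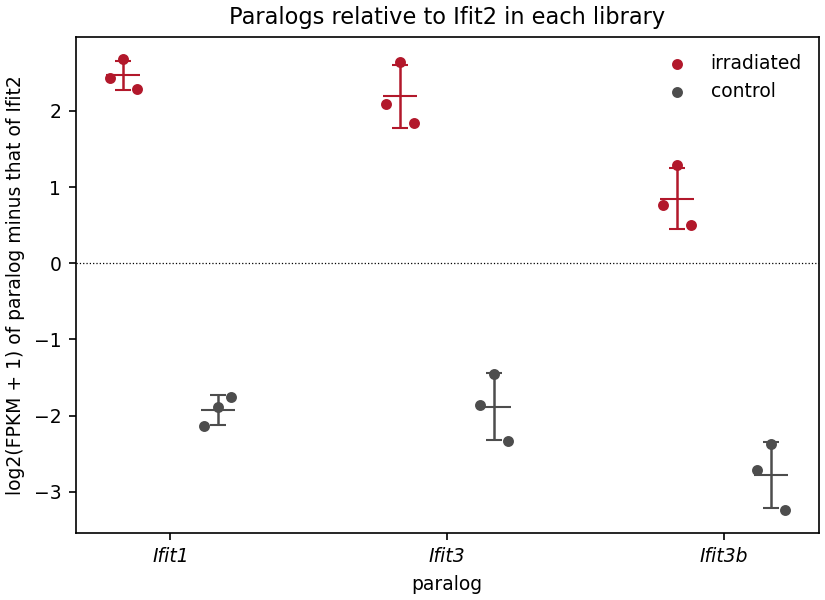
Difference between log2(FPKM + 1) of Ifit1, Ifit3 or Ifit3b and of Ifit2 in the same library, for irradiated (left, red) and control (right, grey) libraries, with points for libraries and bars for the mean ± SD. The dotted line marks equal levels, and all irradiated points of these 3 paralogs lie above it and all their control points below it.

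Part of the family cannot be told apart cleanly by short reads. The longest GENCODE M21 transcripts of Ifit3 and Ifit3b were 98.0% identical over 1697 aligned bases, and 51.2% of the 50-base stretches and 31.7% of the 100-base stretches of Ifit3 also occur in Ifit3b. The sources used here give neither the read length nor how such reads were assigned, so the split between these 2 genes is uncertain. The ratio of Ifit3b to Ifit3 was 0.385, 0.384 and 0.378 in the irradiated libraries, although Ifit3 itself ranged over 36.0 to 77.7 FPKM. In the controls, where Ifit3 was at 0.81 to 1.08 FPKM, the ratio was 0, 0 and 0.102. The reason for these ratios was not tested. Summed before the log, both copies together had a log2 fold change of 5.20 (limma adjusted p = 0.000526).

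Ifit2 shared no 50-base stretch with any other member. Its best aligned stretches were 73.8% to 75.5% identical to those of its paralogs, so its values are not mixed with theirs in this way. Ifit1 shared 7.06% of its 50-base stretches with Ifit1bl2 and 0.614% with Ifit1bl1. The RefSeq span of Ifit1bl1, on the minus strand, runs from 34592888 to 34662981 and encloses Ifit3b, Ifit1bl2 and Ifit1. Whether counting used the strand is not stated, so its few fragments may not be its own. Ifit1bl2, which starts head to head with Ifit1, had 0.00987, 0.00928 and 0.00625 times the FPKM of Ifit1 in the irradiated libraries.

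The induced members also followed one another across the irradiated libraries. Library 2 was the highest and library 3 the lowest for 5 of the 6 members, Ifit2 included and Ifit1bl1 excepted. That order held for 50 of the 57 listed interferon-stimulated genes tested, against 19.5% of all genes tested. Control 3 was the highest control for Ifit1, Ifit2, Ifit3 and Ifit3b, as it was for 52.8% of all genes tested.

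Over the 6 libraries, log2(FPKM + 1) of Ifit1 had a Pearson correlation of 0.99 with Ifit3 and with Ifit3b, and of 0.84 with Ifit2. These correlations describe 6 points in 2 groups that share their libraries. The 5 genes most like Ifit1 were Irgm2, Arhgap6, Ifih1, Oasl2 and Trim30a (r at least 0.9989). Irgm2, an interferon-inducible GTPase, measured 26.4, 31.3 and 21.2 FPKM in irradiated cells, against 0.14, 0.13 and 1.14 FPKM in control cells. Ifih1, which senses double-stranded RNA, and Oasl2, of the oligoadenylate synthetase family, had log2 fold changes of 3.55 and 5.58. Trim30a had a log2 fold change of 3.24 and Arhgap6, a GTPase-activating protein, of 1.13.

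The 5 genes most like Ifit2 were Arfgap3, Tlr5, Skap2, Mob3b and Siae (r at least 0.9978), and none of them passed the test, with log2 fold changes of 0.23 to 0.93. Arfgap3, which acts on ARF GTPases at the Golgi, measured 31.7, 33.5 and 29.7 FPKM in irradiated cells, against 21.5, 18.1 and 29.7 FPKM in control cells. Like Ifit2, it had its highest control in library 3, beside the irradiated values. Correlations above 0.95 were found with 1712 genes for Ifit2 and with 847 for Ifit1.

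Among interferon-stimulated genes outside the family, Ifit1, Ifit3 and Ifit3b lay near the top and Ifit2 near the bottom in change on log2(FPKM + 1). Of 57 genes tested from a list of such genes, 54 were called higher in irradiated cells and none lower by limma, against 9.24% and 2.77% of all genes, with a median log2 fold change of 2.70. Of these 57, 11 reached the minimum level with no control at 1 FPKM or more. Others had fewer than 3 such controls and also needed irradiated libraries, such as Rtp4 (0.46, 0.78 and 3.09 FPKM in control cells). The list was drawn up with earlier results of these data known. The log2 fold change was above that of Ifit1 in 5 of the 57, above that of Ifit3 in 9 and above that of Ifit3b in 11. It was above that of Ifit2 in 53 and below it in 4, and 35 of the 57 were called higher relative to Ifit2, where 0.730% of all genes were.

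On log2(FPKM + 1), which holds down genes with controls near 0, the largest rises of the list were those of Rtp4, a receptor transporter protein, and Usp18, which removes ISG15 from proteins and damps interferon receptor signalling, at 5.79 and 5.73. Psmb9, an immunoproteasome subunit, was next above Ifit2, with 43.1 FPKM in irradiated and 24.5 FPKM in control cells (log2 fold change 0.77, limma adjusted p = 0.0464). Ifi27, a mitochondrial interferon-induced protein, was next below it, with 137 FPKM in irradiated and 89.2 FPKM in control cells (0.61, limma adjusted p = 0.0466). Both passed narrowly where Ifit2 did not, and their groups did not overlap. The smallest changes were those of the exonuclease gene Isg20 (0.26) and of Ifitm1 (0.27), which were not called. Ifit2 had a lower control level than 22 of the 57 genes and a lower irradiated level than 51.

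**Figure D4:**
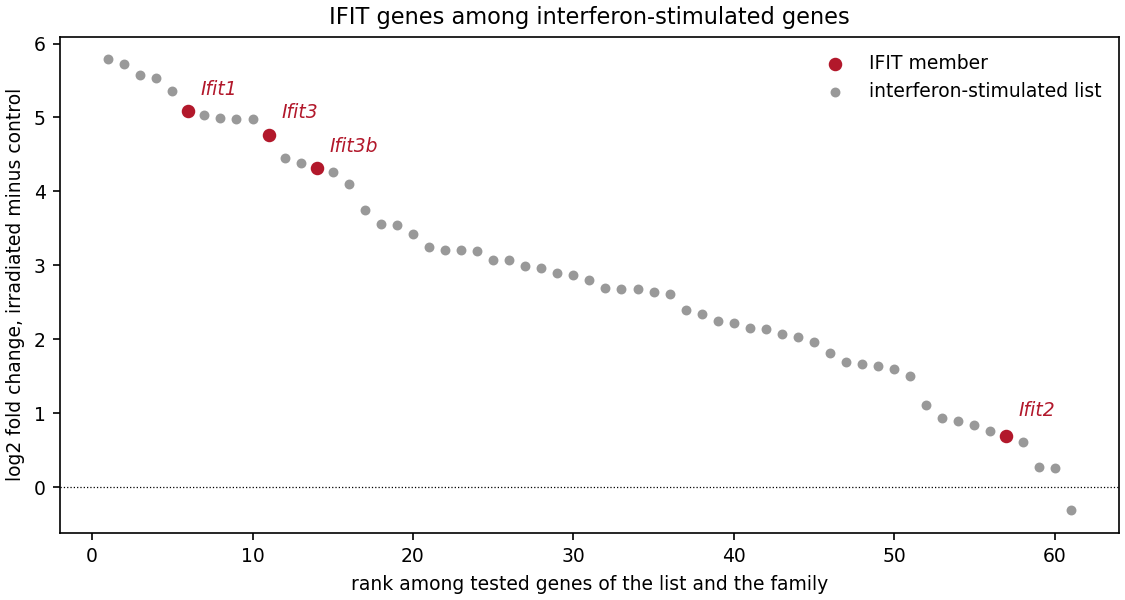
Log2 fold change (irradiated minus control) of 57 interferon-stimulated genes (grey) and the 4 tested IFIT genes (red), ranked from the largest to the smallest. Ifit1, Ifit3 and Ifit3b stand among the upper values at 5.08, 4.76 and 4.31, and Ifit2 at 0.69 has 4 listed genes below it.

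Transcripts of interferons themselves were scarcely seen. Ifnb1, interferon beta, measured 0.51, 0.26 and 0 FPKM in irradiated cells and was listed at 0 in all controls. Ifnl2 was listed at 0.13 FPKM in irradiated library 3 and Ifnk at 0.11 FPKM in control 2. None reached the minimum for a test, so no comparison was made.

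Of the 14 receptor and signalling genes tested, 4 were called higher and none lower by limma, against 9.24% and 2.77% of all genes. Without control 3, 12 were called higher, as were 45.8% of all genes. The 4 included Stat2, Irf9 and Usp18, and Usp18 reached the minimum level only through the irradiated libraries. Stat2, the signalling partner of IRF9, had a log2 fold change of 2.80 (limma adjusted p = 0.00398). Irf9, which binds the response element, measured 28.5, 28.3 and 21.1 FPKM in irradiated cells, against 2.32, 2.59 and 2.86 FPKM in control cells (log2 fold change 2.90, limma adjusted p = 0.000526). The type I receptor chains Ifnar1 and Ifnar2 had log2 fold changes of 0.47 and 0.34 and were not called (limma adjusted p = 0.0806 and 0.135).

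Of 19 nucleic acid sensing genes tested, 10 were called higher and none lower by limma, against the same shares of all genes. Irf5, 1 of the 19, reached the minimum level with no control at 1 FPKM or more. Ifih1 (0.70, 0.57 and 1.95 FPKM in control cells) and Zbp1 (0.34, 1.11 and 1.23 FPKM) were called higher. They also needed the irradiated libraries to reach that level. The RNA sensors Ddx58, which encodes RIG-I, and Ifih1, which encodes MDA5, rose by 2.68 and 3.55. The DNA sensor gene Cgas and its adaptor gene Sting1 had log2 fold changes of 0.30 and 0.50 and were not called, Sting1 by the narrowest margin (limma adjusted p = 0.182 and 0.05001). Irf7 rose by 5.36 and Irf1 by 1.58 (limma adjusted p = 0.0488). Irf3, whose activated protein can drive IFIT genes directly, measured 23.7, 24.8 and 21.2 FPKM in irradiated cells, against 34.2, 42.7 and 21.3 FPKM in control cells, and was not called (-0.43, limma adjusted p = 0.235).

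The tested genes around the cluster had smaller log2 fold changes than Ifit1, Ifit3 and Ifit3b. Of the genes annotated within 500 kb of its limits, 9 were in the table and 5 could be tested. Fas, a death receptor gene, was the only one called, where 12.0% of all genes were. It reached the minimum level only through the irradiated libraries, with 2.90 ± 0.140 FPKM in irradiated cells and 0.287 ± 0.205 FPKM in control cells (SD, n = 3 each; log2 fold change 1.61, limma adjusted p = 0.00288). Lipa, the lysosomal acid lipase gene and the nearest protein-coding neighbour of Ifit2, measured 16.1, 20.6 and 17.0 FPKM in irradiated cells, against 7.71, 6.92 and 14.95 FPKM in control cells. Its log2 fold change of 0.86 was not called (limma adjusted p = 0.0781), and, as for Ifit2, its control 3 was near the irradiated values.

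On the same side, Stambpl1 and Acta2, the smooth muscle actin gene, had log2 fold changes of 0.91 and 0.96 (limma adjusted p = 0.0512 and 0.0785). On the other side of the cluster, Slc16a12, next to Ifit1, was listed at 0.02 FPKM in each irradiated library and at 0 in each control. Kif20b, a mitotic kinesin gene, had a log2 fold change of 0.41 (limma adjusted p = 0.122). Lipn, Lipm and Pank1 stayed below 0.1 FPKM.

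**Figure D5:**
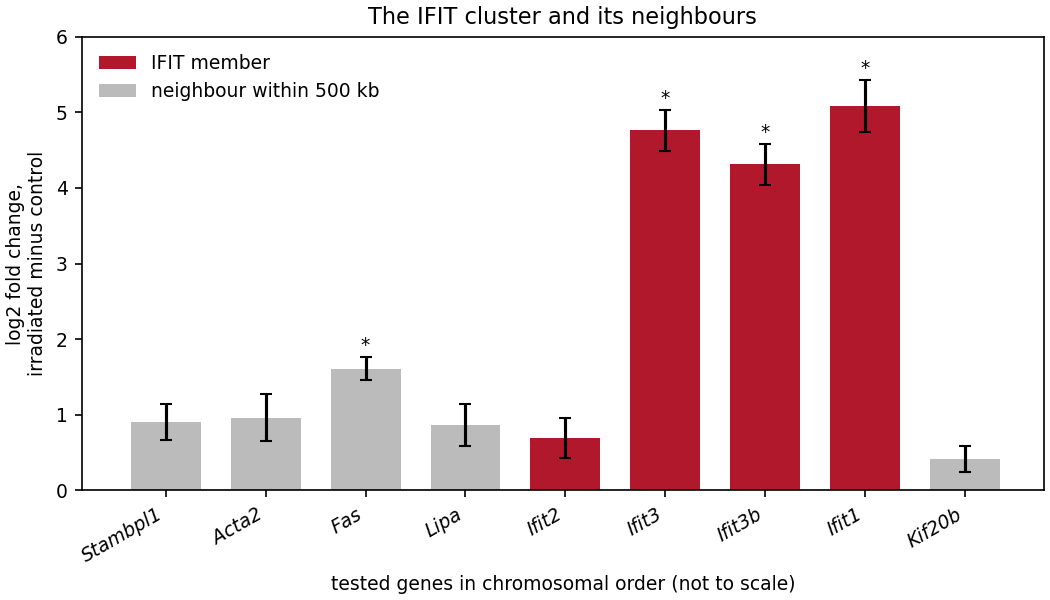
Log2 fold change (irradiated minus control) with its SE for the tested genes of the IFIT cluster (red) and its neighbours within 500 kb (grey), in chromosomal order and not to scale. Asterisks mark genes called at a limma adjusted p below 0.05, which are Fas, Ifit3, Ifit3b and Ifit1.

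The libraries had FPKM sums of 652691 to 663489 in irradiated cells and 693961 to 982553 in control cells. On the log2 scale, genes had a median SD of 0.08 in the irradiated group and 0.30 in the control group, while the fit assumes equal spread, so adjusted p-values are approximate. Of 10 squamous epithelial markers, 2 reached a mean of 1 FPKM. These were the simple-epithelium keratins Krt8 (385 FPKM in irradiated and 1033 FPKM in control cells) and Krt18, while Krt5, Krt14, Krt6a, Epcam, Cdh1 and Trp63 stayed below 0.5 FPKM. The summed epithelial markers were 485 to 497 FPKM in irradiated and 699.8 to 1891 FPKM in control cells. Of 6 fibroblast markers, 5 reached a mean of 1 FPKM, and their sums were 109 to 129 FPKM in irradiated and 74.5 to 115 FPKM in control cells. Macrophage and leukocyte markers, whose cells can express IFIT genes, summed to 7.44 to 9.30 FPKM in irradiated and 2.92 to 5.06 FPKM in control cells, from 7 genes in the table. Most of that was Cd68 and Lyz2, and the defining markers Ptprc, Adgre1, Csf1r and Itgam were at or below 0.05 FPKM in both groups. In such bulk samples, more cells with IFIT RNA and more of it per cell cannot be told apart.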

How the data were processed

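The values are FPKM per gene in 6 libraries, as the authors deposited them per the file headers, rounded to 2 decimals. Per the submitters' processing notes, HISAT and the mouse build GRCm38.p6 were used. No source used here names the counting tool, the annotation or how reads shared by copies were treated. Per the labels' protocols, ribosomal RNA was removed from total RNA. FPKM holds no read number, so the depth is unknown and intervals that need it are left out.

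The 11103 genes that reached 1 FPKM in 3 or more libraries entered limma 3.58.1 as log2(FPKM + 1) (R 4.3.3, trend and robust options, 2 groups), with Benjamini-Hochberg adjustment over all of them. The same fit was run on each gene's log2 ratio to Ifit2. Both were tested on simulated data. The main fit called 51% of 2-fold and 87% of 4-fold changes there, and the ratio fit 16% and 99%. Named genes were the 6 members, the annotated genes within 500 kb, the 5 genes most correlated with Ifit2 and with Ifit1, list genes set by the rank of their fold changes, and a fixed set of interferon pathway genes, of which 1 is not reported here. Other genes named from marker and translation lists were chosen after their values were seen. List symbols were matched to the table directly or by RefSeq synonym. Copies were compared with Biopython 1.88. Members and lists were chosen with earlier results of these data known. Alternatives were other normalizations, filters, pseudocounts and variance options, a replicate block and the omission of each library, the last with the genes tested kept at 11103.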

Additional observations from a re-analysis of the deposited data

How the results depend on the processing

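Ifit1, Ifit3 and Ifit3b were called higher, and called higher relative to Ifit2, under every alternative run, with log2 fold changes of 4.87 to 6.16, 4.47 to 5.65 and 3.92 to 7.26. In the main fits these paralogs met the minimum level only through the irradiated libraries. Ifit2 ranged from 0.34 to 0.97 and was called only without control 3; leaving out single libraries gave 0.46 to 0.97. With no filter, which called 7.86% of 17030 genes, 5 members were called, Ifit1bl1 and Ifit1bl2 being added. Genes called higher and lower numbered 645 and 601 after quantile normalization and 675 and 476 after trimmed-mean scaling, and the 5 FPKM filter, with 8889 genes tested, left 506 higher. Genes called higher relative to Ifit2, 81 in the report, numbered 145 after quantile normalization and 144 with a pseudocount of 0.1. Leaving out single libraries gave 164 to 5086 genes higher, 17 to 2583 lower and 38 to 569 higher relative to Ifit2, with each highest count without control 3, and 4 to 12 receptor and signalling genes higher. Interferon-stimulated genes called higher stayed within 44 to 54 and sensing genes within 7 to 14. Except where stated, the cause was not tested. Libraries of the same number did not deviate together (correlations -0.11, 0.02 and -0.16). With 3 libraries per group and control 3 apart from the other controls, this cannot settle whether the numbers pair them. A replicate block gave 260 genes higher and 40 lower, and Ifit2 an unchanged 0.69 (limma adjusted p = 0.155). The unknown depth limits what can be said of Ifit1bl1, Ifit1bl2 and the interferon genes, and the near-identical copies limit the split of Ifit3 and Ifit3b.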

Other observations

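IFIT proteins bind the translation factor eIF3. Of its 14 subunit genes tested, Eif3i was called lower and none higher by limma, counts near the 2.77% and 9.24% of all genes and so no result about eIF3. Subunits had log2 fold changes of both signs, from -0.80 for Eif3f to 0.37 for Eif3a, neither of them called, with a median log2 fold change of -0.24, against 0.17 for all genes. Eif3i measured 156, 161 and 162 FPKM in irradiated cells, against 262, 286 and 215 FPKM in control cells (log2 fold change -0.66, limma adjusted p = 0.0401). Eif3e, which encodes a subunit that human IFIT1 binds, measured 348, 324 and 349 FPKM in irradiated cells, against 345, 278 and 457 FPKM in control cells, and was not called (-0.05, limma adjusted p = 0.858).

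Of 5 genes for building the messenger RNA cap that IFIT1 reads, 1 was called, where 12.0% of all genes were, so the count is no result about the group. Cmtr1, the methyltransferase that adds the 2'-O methyl group which lets RNA escape IFIT1, measured 25.4, 28.3 and 23.1 FPKM in irradiated cells, against 12.5, 10.4 and 15.2 FPKM in control cells (log2 fold change 0.97, limma adjusted p = 0.0215). The groups did not overlap. Its relative Cmtr2 had a log2 fold change of 0.48 and was not called (limma adjusted p = 0.0912), and the guanine methyltransferase gene Rnmt one of 0.20 (limma adjusted p = 0.397).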
